A study of Saccharomyces cerevisiae with 8 samples.

Results

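The genes described here are 10 yeast genes that drive or restrain the passage from G1 to S phase and through mitosis. They are the G1 cyclin genes *CLN1* (YMR199W), *CLN2* (YPL256C) and *CLN3* (YAL040C), the Pho85 cyclin gene *PCL1* (YNL289W), the B-type cyclin genes *CLB2* (YPR119W), *CLB5* (YPR120C) and *CLB6* (YGR109C), the Cdk inhibitor gene *SIC1* (YLR079W), the G1/S repressor gene *WHI5* (YOR083W) and its paralog *SRL3* (YKR091W). They were taken by systematic name from a table of 6212 open reading frames (ORFs), and 9 of the 10 had a value on at least 1 array. *SRL3* was chosen by its high log2 ratio in *ptc1 ptc6* cells. Its values there are therefore a description. For the 10 genes in that mutant, and in the difference between the mutants, no p-value is given. How many of them passed a threshold stands beside the share of all ORFs that did, as a description from which nothing is read.

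mRNA levels were compared on 2-colour arrays of amplified ORFs in *Saccharomyces cerevisiae* growing exponentially at 28 °C in rich glucose medium (YPD) without any drug. A set of 4 arrays set *ptc6* cells (*ptc6::kanMX4*) against wild type (wt) cells, and another set of 4 set *ptc1 ptc6* cells (*ptc1::NAT ptc6::kanMX4*) against wt cells. All strains had the BY4741 background, which is haploid, of mating type a and auxotrophic through deletions in *HIS3*, *LEU2*, *MET15* and *URA3*. There were 2 biological replicates of each mutant, and each replicate was put on a pair of dye-swapped arrays, which were averaged before any test, so that n = 2 for each mutant. Whether the sets shared wt RNA, and whether more than 1 clone of a mutant was used, is not given in the sources used here. The values are log2 ratios of mutant over wt, so that 1 stands for a 2-fold higher level in the mutant and -1 for a 2-fold lower one. A lower ratio in the RNA of a whole culture cannot be told apart from fewer cells in the phase of the cycle in which a gene is expressed.

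In budding yeast the cyclin-dependent kinase Cdc28 takes its cyclins in turn. Cln3 acts first in G1, and together with Cdc28 it relieves the transcription factors SBF and MBF of the repressor Whi5, after which *CLN1*, *CLN2*, *PCL1*, *CLB5* and *CLB6* are transcribed. Cln1 and Cln2 drive budding and lead to the destruction of Sic1, which holds the S phase cyclins Clb5 and Clb6 in check. Clb2 is the main cyclin of mitosis. Srl3 resembles Whi5, and its gene was named as a suppressor of the lethality of cells without the checkpoint kinase Rad53.

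The arrays held values for between 4050 and 5537 ORFs, and for 6 to 9 of the 10 genes. The deleted genes were low where the labels place the deletions. For *PTC6* the mean in *ptc6* cells was -2.34 ± 0.11 (SD, n = 2, from 3 arrays) and in *ptc1 ptc6* cells -3.94 ± 1.11 (from 2 arrays), while *PTC1* had -2.56 ± 0.18 in the double mutant. Across 4361 ORFs the replicate means correlated with Pearson r = 0.76 in *ptc1 ptc6* but with r = 0.12 in *ptc6*, so the *ptc6* replicates resembled each other little, and their values are given separately below. The arrays hold ratios only, so whether markers of the mating type are present cannot be judged. Among genes specific to a cells, 4 were tested in *ptc6* and none passed, as for all ORFs. Of 5 tested in *ptc1 ptc6* only the pheromone receptor gene *STE2* passed, which is 20% against 14.1% of all ORFs. It had -0.50 ± 0.09 (SD, n = 2, limma adjusted p of 0.0399), and it did not pass with each array centred on its median. *BAR1*, *STE6*, *MFA2* and *ASG7* had -0.43, -0.31, -0.19 and -0.01. Thus 0 of the 5 means were above 0, against 42.6% of all ORFs, and after the centring 1 was (20% against 51.6%). In *ptc6*, 3 of 4 were above 0 (75% against 56%). Of the genes specific to alpha cells only *SAG1* was tested, and it passed in neither mutant.

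*SRL3* stood far above wt in *ptc1 ptc6* cells and slightly below wt in the *ptc6* arrays that measured it. In *ptc1 ptc6* its log2 ratios were 2.115 and 1.799 on the arrays of replicate 1 (mutant in Cy3 and in Cy5), and 2.244 and 2.938 on those of replicate 2. All 4 arrays were thus high, with both dyes and in both replicates. The mean was 2.27 ± 0.45 (SD, n = 2), a 4.84-fold higher level. On these arrays *SRL3* ranked 7 of 4050, 15 of 4620, 8 of 4710 and 12 of 4621 ORFs from the top. In *ptc6* it had values in replicate 2 only, -0.295 and -0.378, which could not be tested because replicate 1 gave none. These *ptc6* values ranked 522 of 5537 and 363 of 5347 from the bottom of their arrays. The values of the mutants do not overlap, and the means differed by 2.61 on the log2 scale.

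Of *WHI5*, the gene of the repressor that keeps SBF silent in early G1, little was measured in *ptc1 ptc6*. Its only value there was 0.241, on the array of replicate 1 with the mutant in Cy5. On that same array *SRL3* stood 1.56 above it. In *ptc6*, *WHI5* had -0.427 in replicate 1 and -0.204 and 0.167 in replicate 2, with a mean of -0.22 ± 0.29 (SD, n = 2). These values lie on both sides of 0 and the SD exceeds the size of the mean. How far cDNA of one paralog binds the probe of the other was not tested. *SIC1* had no value on any of the 8 arrays and is 1 of 514 ORFs for which this is so.

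**Figure D1:**
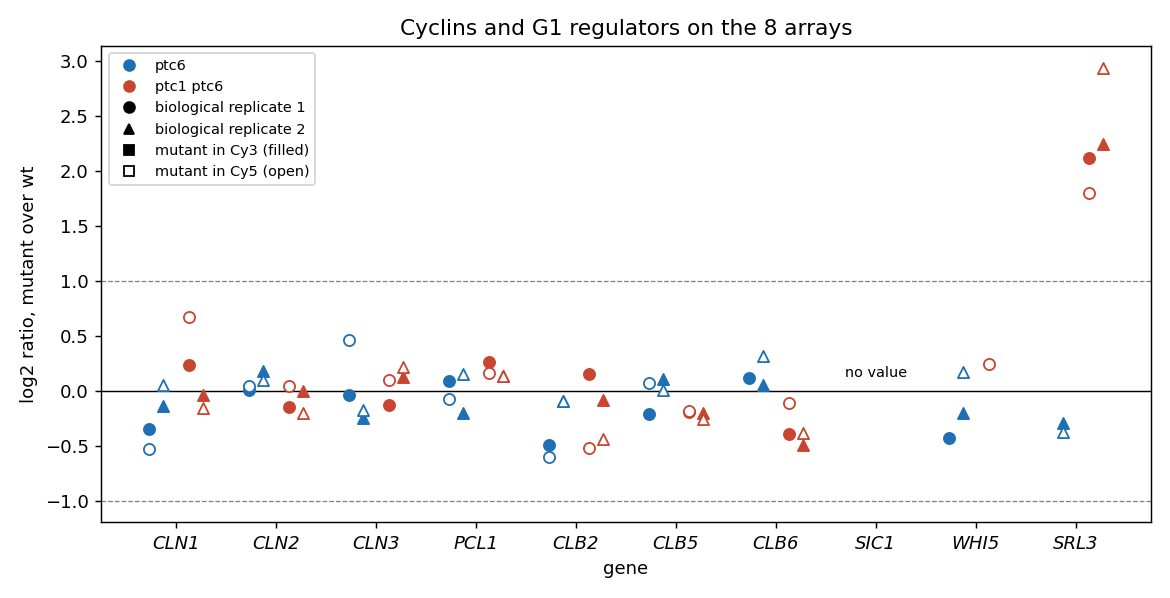
The log2 ratio of mutant over wt (vertical axis) is plotted for each gene and array, with colour for the mutant, circles and triangles for biological replicates 1 and 2, and filled or open symbols for the mutant in Cy3 or Cy5. The dashed lines mark 2-fold, which only the 4 *ptc1 ptc6* values of *SRL3*, from 1.799 to 2.938, exceed.

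The genes next to *SRL3* on the chromosome did not share its ratio in *ptc1 ptc6*. They were looked up by position in the R64 gene table, outside the naming rule. *PXL1*, which encodes a paxillin-like protein of polarised growth, had a mean of 0.04 in *ptc1 ptc6* with values between -0.08 and 0.19. *SRP40*, which encodes a nucleolar protein, had -0.12 there, between -0.29 and 0.06. In *ptc6* these genes had -0.06 and 0.51, and neither passed in either mutant.

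The 5 genes whose ratios lay nearest to those of *SRL3* were *CRG1* (YHR209W), YOR289W, *HXT5* (YHR096C), *PRM5* (YIL117C) and *PGM2* (YMR105C). They were ranked by the root mean square difference of the log2 ratio from *SRL3* over the 6 arrays with an *SRL3* value, among 3683 other ORFs measured on all 6. *CRG1*, a methyltransferase gene, differed by 0.15, with values of 2.171, 1.807, 2.358 and 2.725 in *ptc1 ptc6* and of -0.358 and -0.102 in *ptc6*. The difference was 0.34 for YOR289W, 0.40 for *HXT5*, a hexose transporter gene, 0.41 for *PRM5*, a gene induced by pheromone and by cell wall stress, and 0.48 for *PGM2*, which encodes the main phosphoglucomutase. All 5 were above 1.45 on each *ptc1 ptc6* array and below 0 on both *ptc6* arrays of replicate 2, as *SRL3* was. They were picked for nearness to *SRL3* on these same arrays, so nothing is read from this pattern. Pearson r with *SRL3* over the 6 arrays was between 0.978 and 0.999, a description over arrays that share 3 replicates and, within a dye swap, their RNA. None of the 10 genes other than *SRL3* came near this pattern.

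**Figure D2:**
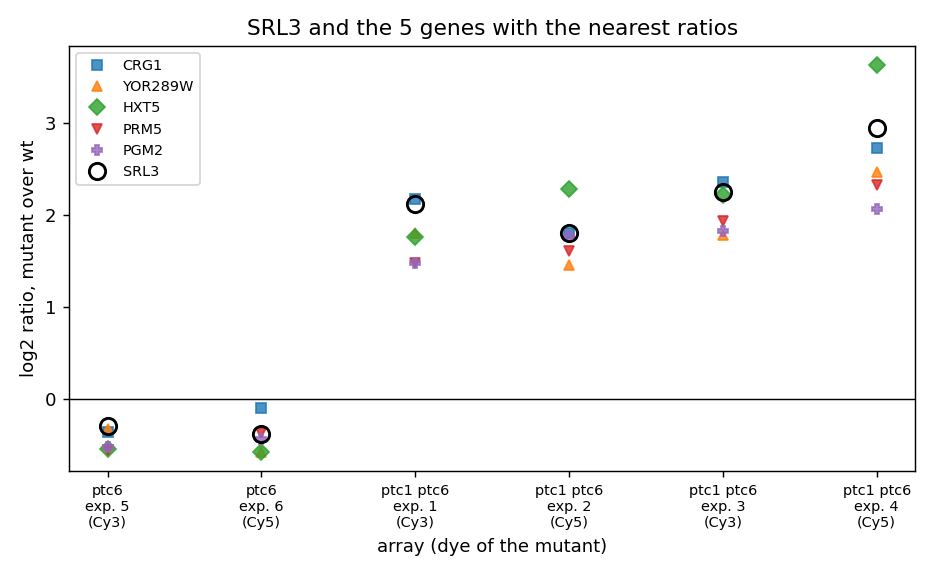
The log2 ratio of mutant over wt (vertical axis) is plotted on the 6 arrays that measured *SRL3* (horizontal axis, with the dye of the mutant) for *SRL3*, as open black circles, and for the 5 genes nearest to it, as filled symbols. All 6 genes lie below 0 on the *ptc6* arrays and above 1.45 on the *ptc1 ptc6* arrays, and *CRG1* follows *SRL3* most closely, with a root mean square difference of 0.15.

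The G1 cyclin genes stayed inside the 2-fold limits on every array of both mutants, with values between -0.529 and 0.668. *CLN3*, the most upstream of them, had -0.038 and 0.464 in replicate 1 and -0.245 and -0.175 in replicate 2 of *ptc6*, with a mean of 0.00 ± 0.30 (SD, n = 2). The replicate means, 0.21 and -0.21, lay on opposite sides of wt, and a single array, with *ptc6* in Cy5, gave the highest value. In *ptc1 ptc6* it had -0.129, 0.101, 0.123 and 0.217, with a mean of 0.08 ± 0.13.

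*CLN2* varied least of the 3 from array to array. It had 0.003, 0.044, 0.179 and 0.10 in *ptc6*, with a mean of 0.08 ± 0.08, and -0.153, 0.044, -0.004 and -0.207 in *ptc1 ptc6*, with a mean of -0.08 ± 0.04 (SD, n = 2 each). Its values in the mutants overlap.

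Its paralog *CLN1* varied more, and it did so by replicate. In *ptc6* it was low in replicate 1, with -0.351 and -0.529, and near 0 in replicate 2, with -0.139 and 0.052. In *ptc1 ptc6* it was high in replicate 1, with 0.234 and 0.668, and near 0 in replicate 2, with -0.042 and -0.157. The means were -0.24 ± 0.28 in *ptc6* and 0.18 ± 0.39 in *ptc1 ptc6* (SD, n = 2), each smaller in size than its SD. On the same array, *CLN1* minus *CLN2* was between -0.57 and -0.05 in *ptc6* and between -0.04 and 0.62 in *ptc1 ptc6*.

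*PCL1*, whose product activates the kinase Pho85 in G1, was slightly above wt on every *ptc1 ptc6* array, with 0.258, 0.157, 0.132 and 0.136 and a mean of 0.17 ± 0.05 (SD, n = 2). This is a 1.13-fold level. In *ptc6* it had 0.092, -0.074, -0.201 and 0.151, on both sides of 0, with a mean of -0.01 ± 0.02.

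The S phase cyclin genes were below wt on every *ptc1 ptc6* array, and the mean of *CLB6* was lower than that of *CLB5*. On the array of replicate 1 with the mutant in Cy5 the order was reversed, with -0.112 for *CLB6* and -0.181 for *CLB5*. *CLB6* had -0.392, -0.112, -0.495 and -0.383 there, with a mean of -0.35 ± 0.13, a 0.787-fold level. In *ptc6* its 3 values were 0.113, 0.047 and 0.315, with a mean of 0.15 ± 0.05 (SD, n = 2 each). The ranges of the mutants do not overlap, and the means differ by -0.49 on the log2 scale. *CLB5* had -0.192, -0.181, -0.202 and -0.259 in *ptc1 ptc6*, a narrower range than that of any other of these genes with 4 values in a mutant, with a mean of -0.21 ± 0.03. In *ptc6* it had -0.215 on 1 array and 0.065, 0.104 and 0.004 on the other 3, with a mean of -0.01 ± 0.09. The *ptc6* value of -0.215 falls within the *ptc1 ptc6* range. The median of all ORFs tested in *ptc1 ptc6* was itself below 0, at -0.05.

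*CLB2*, the gene of the main mitotic cyclin, was below wt on all 4 *ptc6* arrays. It had -0.498 and -0.604 in replicate 1, where it ranked 248 of 4883 and 159 of 4308 ORFs from the bottom, and -0.095 and -0.098 in replicate 2. The replicates thus differed by far more than the dyes, and the mean was -0.32 ± 0.32 (SD, n = 2). In *ptc1 ptc6* the values followed the dye of the mutant instead, with 0.152 and -0.083 in Cy3 and -0.518 and -0.441 in Cy5. The mean there was -0.22 ± 0.06, a value that averages over a gap of -0.67 between the dyes in replicate 1 and of -0.36 in replicate 2. *CLB2* and *CLB5* are neighbours in the R64 gene table, as are *CLB1* and *CLB6*. *CLB1*, the other cyclin of the Clb2 pair, had a mean of 0.03 in *ptc1 ptc6* with array values from -0.59 to 0.64, and of 0.04 in *ptc6* with values from -0.35 to 0.33.

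In *ptc6*, 8 of the 10 genes could be tested and 0 passed in limma after adjustment over all 4824 ORFs, where 0% of the ORFs passed. At an unadjusted p under 0.05 it was also 0 of the 8, against 8.00% of the ORFs. The lowest adjusted p was 0.602, for *CLB2*, and the highest 0.998, for *CLN3*. The deleted gene *PTC6*, with a mean of -2.34, did not pass in *ptc6* either (limma adjusted p of 0.407). Failing to pass in *ptc6*, here and in the lists below, therefore does not show an unchanged level. The 95% confidence intervals of the 8 mean log2 ratios all lay between -0.65 and 0.41, inside the 2-fold limits. By the 2-fold rule of the methods, which needs values on 2 of 4 arrays, 0 of 9 genes passed, against 0.0549% of 5461 ORFs. Of the 6 genes with 4 of 4 values, 2 had the same sign on all 4 arrays (*CLN2* above 0 and *CLB2* below 0), against 20.9% of the ORFs so measured. The median of the 8 means was -0.01, against 0.02 over all ORFs tested.

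In *ptc1 ptc6*, 8 of the 10 genes entered the limma fit of 4596 ORFs, of which 14.1% passed, and 5.64% of all passed as higher. *SRL3* was the 1 of the 8 past the threshold. It was chosen by its ratio on these same arrays, so that this is no test of it. The same holds for the 2-fold rule, which *SRL3* alone of 8 genes met, against 1.98% of 4754 ORFs. Without *SRL3* the other 7 means lay between -0.35 and 0.18 with a median of -0.08, against -0.05 over all ORFs tested, and their median size was 0.18 against 0.20. The same sign on 4 of 4 arrays was found for *PCL1*, *CLB5*, *CLB6* and *SRL3*, which are 4 of 8 genes, against 45.4% of the ORFs. Other fits called other genes. When the 8 arrays were fitted singly, with a random block for each replicate, 2 genes passed, *SRL3* and *CLB6*, against 29.4% of the ORFs. With a variance trend and robust eBayes *CLB6* passed and *SRL3* did not, against 16.4%.

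In the difference between the mutants, given again as counts only, 7 genes entered the fit and 0 passed, against 0.206% of 4361 ORFs. At an unadjusted p under 0.05 it was 1 of the 7, *CLB6*, against 24.3%. When the 8 arrays were fitted singly, *CLB6* passed as lower in *ptc1 ptc6*, against 17.2% of the ORFs. *SRL3* was not tested, because *ptc6* replicate 1 has no value for it. Of the 6 genes with values on 8 of 8 arrays, 0 had array ranges that do not overlap between the mutants, against 22.3% of 3436 ORFs. This count leaves out *CLB6*, *WHI5* and *SRL3*, which lack values on some arrays and whose ranges do not overlap. The share of all ORFs with as few values is not given here, so nothing is read from either. After *SRL3* and *CLB6*, the largest differences in the means were 0.46 for *WHI5*, with 1 array in *ptc1 ptc6*, and 0.42 for *CLN1*. Each mutant has its own set of arrays, so a difference between the sets cannot be told apart from one between the mutants.

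**Figure D3:**
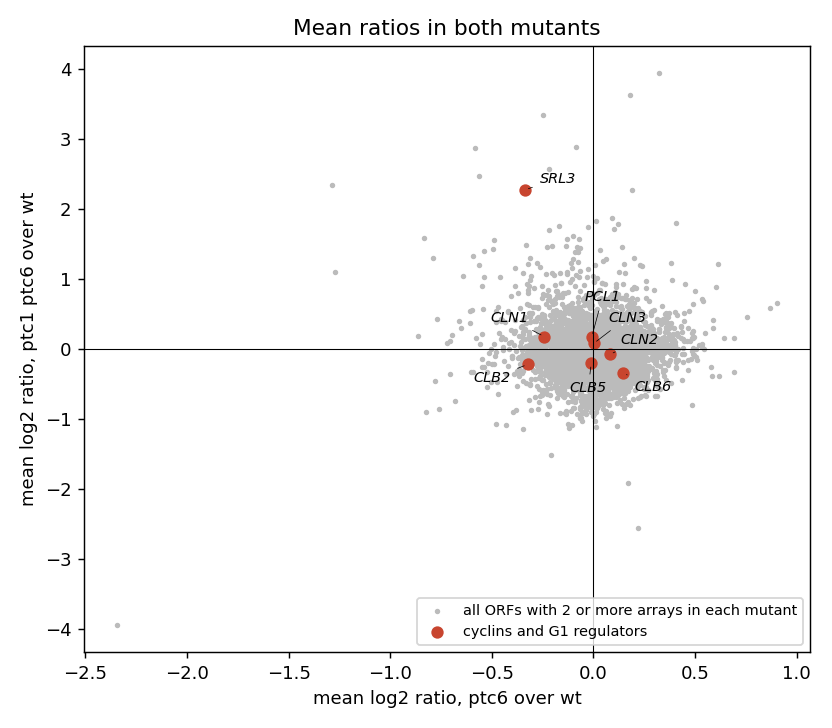
The mean log2 ratio in *ptc6* (horizontal axis) is plotted against that in *ptc1 ptc6* (vertical axis) for 4725 ORFs with values on at least 2 arrays of each mutant (grey), with 8 of the 10 genes in red. *SRL3* lies at 2.27 on the vertical axis, apart from the other 7, which sit between -0.35 and 0.18 among the bulk of the ORFs.

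Other genes of the cell cycle were counted in 8 lists, which hold 104 genes in all. In *ptc6*, 89 of them could be tested and 0 passed, and in *ptc1 ptc6* 1 rose and 5 fell of 82 tested. These 6 are 7.32% of the genes tested, against 14.1% of all ORFs. With each array centred on its median, *FKH1*, *MYO1* and *DSE4* passed again, *PCL8*, *PLM2* and *RNR4* did not, and *ASH1*, a daughter-cell repressor gene outside the naming rule, passed as higher. The count then was 2 higher and 2 lower. Of all ORFs, 259 passed as higher and 390 as lower, and 303 and 264 after the centring.

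Among 11 other cyclin genes tested in *ptc1 ptc6*, *PCL8* was the only one that passed, which is 9.09% against 14.1% of all ORFs. After the centring *PCL8* did not pass. It encodes a Pho85 cyclin of glycogen metabolism and fell by 0.41 on the log2 scale, with array values between -0.50 and -0.26 (SD 0.07, n = 2, limma adjusted p of 0.0487). In *ptc6* the largest of the 12 means was that of *PCL5*, the Pho85 cyclin that directs Gcn4 to degradation, at 0.30 ± 0.30 (adjusted p of 0.602), with 0.402 and 0.619 in replicate 1 and 0.084 and 0.093 in replicate 2.

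None of the 9 kinase genes and kinase regulators tested in *ptc1 ptc6* passed, nor did any of the 9 transcription factors and regulators of the G1/S switch or of the 7 ubiquitin ligase genes for cyclins and Sic1. Their medians were 0.02, -0.05 and -0.0045, and after the centring 0.08, 0.01 and 0.05. The largest means were 0.33 ± 0.15 for *CAK1*, the gene of the kinase that activates Cdc28, -0.28 ± 0.03 for *YHP1*, a homeodomain repressor gene, and 0.20 ± 0.07 for *CDC16*, a subunit of the anaphase-promoting complex (SD, n = 2, adjusted p of 0.157, 0.117 and 0.344). In *ptc6* the largest means of these lists were -0.17 ± 0.19 for *HSL1*, a kinase gene of the morphogenesis checkpoint, 0.16 ± 0.01 for *STB1*, which encodes a partner of Swi6, and -0.30 ± 0.21 for *CDC20*, the activator of the anaphase-promoting complex (adjusted p of 0.700, 0.677 and 0.602).

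Of 15 G1/S target genes tested in *ptc1 ptc6*, which are genes that SBF and MBF switch on, 1 fell, which is 6.67% against 14.1% of all ORFs, and 6 of the 15 (40%) were above 0, against 42.6%. The gene that fell was *PLM2*, a gene of a forkhead-associated protein, with -0.606, -0.590, -0.510 and -0.268 (mean -0.49 ± 0.15, adjusted p of 0.0426). The median of the list was -0.20. In *ptc6* the median was 0.00, with replicate medians of -0.12 and 0.16, and the largest mean of a gene measured on all 4 arrays was 0.28 ± 0.01 for *RAD27*, a flap endonuclease gene (adjusted p of 0.602).

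The 9 tested genes of the G2/M cluster list all had means below 0 in *ptc1 ptc6*, also after the centring. Of all ORFs tested, 42.6% were above 0 (51.6% after the centring). *CLB2* belongs to this cluster, of which the list is only a part. *CLB1* and *CDC20*, of the same cluster, were counted in other lists and had means of 0.03 and -0.0045 in *ptc1 ptc6*. Of the 9 genes of the list, 2 fell, which is 22.2% against 14.1% of the ORFs, and the median was -0.24. *FKH1*, one of the forkhead factors of this cluster, had -0.634, -0.774, -0.626 and -0.949, with a mean of -0.75 ± 0.06 (SD, n = 2, limma adjusted p of 0.0270). *MYO1*, the myosin heavy chain gene of the cytokinetic ring, had -0.49 ± 0.10 (adjusted p of 0.0351). In *ptc6* the replicate medians were -0.19 and 0.04, and 0 of 11 passed. There too most means were below 0, with 1 of 11 above it (9.09% against 56% of all ORFs). The largest mean there was -0.30 ± 0.14 for *BUD4*, a gene of bud site selection (adjusted p of 0.602).

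Among 13 genes expressed from mitosis into G1, 1 rose in *ptc1 ptc6*, which is 7.69% against 14.1% of all ORFs, and the median was 0.11. Means above 0 were found for 10 of the 13 (76.9%), against 42.6% of the ORFs, and after the centring for 11 of 13 (84.6%), against 51.6%, with *DSE4* and *ASH1* past the threshold. The gene that rose without the centring was *DSE4*, a daughter-cell glucanase gene that acts in cell separation, with 0.671, 0.326, 0.587 and 0.395 (mean 0.49 ± 0.01, adjusted p of 0.0335). In *ptc6* the largest mean of a gene measured on all 4 arrays was -0.18 ± 0.10 for *RME1*, a repressor gene of meiosis that also acts on *CLN2* (adjusted p of 0.760).

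Of the list of Rad53 checkpoint, ribonucleotide reductase and other *SRL* genes, which was chosen for the name of *SRL3*, 1 of 10 fell in *ptc1 ptc6* (10% against 14.1% of all ORFs) and 2 of 10 were above 0 (20% against 42.6%). These 2 were the other *SRL* genes tested, *SRL1* with 0.17 and *SRL2* with 0.34, and neither passed. The gene that fell was *RNR4*, a small subunit gene of ribonucleotide reductase, with -0.48 ± 0.05 (SD, n = 2, limma adjusted p of 0.0386) and a median of -0.18 for the list. In *ptc6* the median was 0.10, and *RNR2*, the partner of *RNR4* in the small subunit, had 0.25 ± 0.19 (adjusted p of 0.602).

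**Figure D4:**
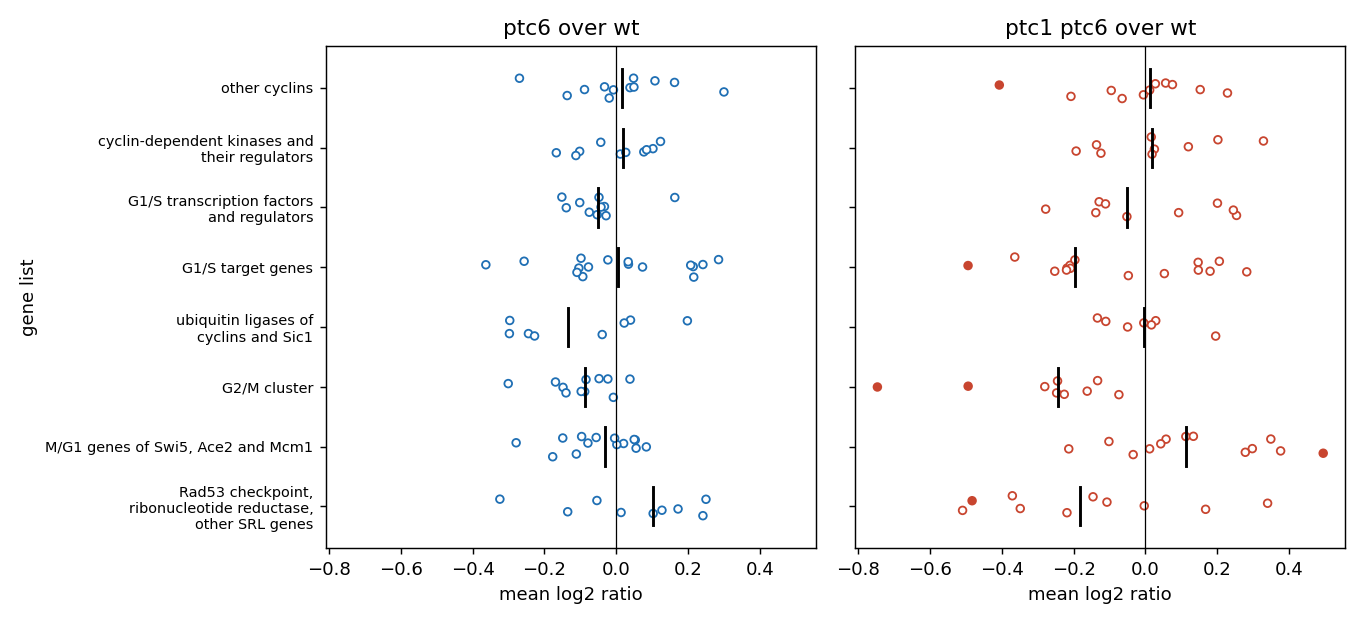
Mean log2 ratios of the tested genes of 8 cell cycle lists are plotted on the horizontal axis for *ptc6* (left) and *ptc1 ptc6* (right), with 1 circle per gene, filled where the gene passed in limma, and a black bar at the median of each list. No circle is filled in *ptc6*, and in *ptc1 ptc6* the 9 genes of the G2/M cluster list all lie left of 0, with *FKH1* at -0.75.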

How the data were processed

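The deposited values are log2 ratios of mutant over wt per ORF and array. Per the methods, the authors scanned the slides, analysed them with GenePix Pro, left out spots under 120 µm in diameter or under 150 fluorescence units, and pre-processed the ratios with GEPAS. The normalization within arrays is not given in the sources used here, and single-channel signals were not used, so no spot could be judged against background. Scale and direction are unstated in the table. Base 2 was taken from the 2-fold rule, and the direction from the deleted genes, which were low on arrays of both dye orientations. Array medians lay between -0.101 and 0.034.

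Gene symbols came from the RefSeq table of R64 by systematic name, and 5662 of 6212 names matched. Dye-swapped arrays of 1 replicate were averaged, which gave 4 means per ORF, and these entered 1 fit of all ORFs in limma 3.58.1 in R 4.3.3 (group means, shared spread, eBayes, two-sided, Benjamini-Hochberg, threshold 0.05). A gene was tested in a mutant if 2 or more of its 4 arrays and each replicate had a value, and not where no residual degree of freedom was left. The fit was run on simulated data with noise drawn separately for each array. This leaves out the RNA shared within a dye swap, so it does not show how the fit treats the spread between replicates. The SD is that of the 2 replicate means. P-values rest on the spread between replicates, pooled over both mutants and moderated over all ORFs. They therefore do not follow from the SD printed beside them. For *PTC6* in *ptc6* the SD was 0.11 and the standard error of the fit 0.33. From each list and mutant, up to 3 genes past the threshold with the largest means were named, or 1 where none passed, among those with values on 4 of 4 arrays. The genes and lists were chosen with earlier results of these data known. Few arrays limit the precision.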

Additional observations from a re-analysis of the deposited data

Results flagged for a closer look

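For *SRL3* and *CLB6* every array of one mutant lay on one side of wt and every array of the other mutant on the opposite side. The *ptc1 ptc6* mean exceeded the *ptc6* mean by 2.61 on the log2 scale for *SRL3*, with 4 arrays against 2, and was -0.49 relative to it for *CLB6*, with 4 arrays against 3. The difference was not tested for *SRL3*, which has no value in *ptc6* replicate 1, and that of *CLB6* did not pass in limma after adjustment. *SRL3* was chosen for its ratio in *ptc1 ptc6*, and the share of all ORFs with such a pattern is not given here. In 14 groups of 4 arrays that measured 1 of the 10 genes, 0 had an array far from the other 3. At 1 in 20 per group about 0.7 would be expected. The 4 arrays are dye-swapped pairs that share RNA, so this count is a description from which nothing is read.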

How the results depend on the processing

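When the 8 arrays were fitted singly with a random block, the genes passing were 2 in *ptc1 ptc6* and 1 in the difference between the mutants, against 1 and 0. Of the 82 tested genes of the cell cycle lists, 10 passed in *ptc1 ptc6*, against 6. All ORFs passing rose as well, from 14.1% to 29.4% in *ptc1 ptc6* and from 0.206% to 17.2% in the difference. Leaving out 1 biological replicate at a time gave 0 to 1 of the 10 genes and 0 to 7 list genes in *ptc1 ptc6*. Both were lowest without a *ptc1 ptc6* replicate. *SRL3* then has no residual degree of freedom and was not tested, and the list genes that passed were 1 without replicate 1 and 0 without replicate 2. *SRL3* had 2.59 and 1.96 in these settings and stayed past 2-fold. In *ptc6* the count stayed at 0 for the 10 genes and for the lists under each alternative run, as did the 2-fold count. Of 101 values of single genes under alternatives, 89 kept their direction and 12 did not, none of these 12 being of a gene that passed. Over the alternatives, 64 to 1351 ORFs passed in *ptc1 ptc6*, against 649. The alternatives on the lists were chosen after seeing the data.

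The labels do not state that equal replicate numbers mark a shared culture or day, and the differences between replicates 1 and 2 correlated with r = -0.21 between the mutants. With the replicate block 0 of 7 genes passed in the difference between the mutants, while all ORFs passing rose from 9 to 268. With crossed numbers, added after seeing the data, these were 0 and 482.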
